A study of Pyrus communis with 12 samples.

Results

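The middle harvesting stages of on-tree pear maturation, H2 and H3, were compared with the 2 stages at the ends, H1 and H4. The comparison used every library of the series, 6 of the middle stages and 6 of the ends, out of 12. In a model with 1 term per stage, the mean of H2 and H3 minus the mean of H1 and H4 was estimated for each gene on the log2 scale, and this difference is called the curvature below. A gene whose level moved evenly from H1 to H4 has a curvature near 0. A gene that was higher in the middle than the ends would give has a positive one, and a gene that sagged in the middle a negative one.

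The fruit were of Pyrus communis cv. 'Abate Fetel', a European pear. RNA was taken from peeled flesh right after harvest, without any treatment, at harvest weeks 1 (H1), 2 (H2), 3 (H3) and 4 (H4), with 3 biological replicates per stage. In the methods of the study H2, H3 and H4 lie 7, 20 and 27 days after H1, so that the intervals of 7, 13 and 7 days are symmetric and a course that is linear in days gives a curvature of 0. Fruit of the most common class of chlorophyll absorbance index were chosen at each stage, which limits each stage to fruit of one degree of ripeness. All fruit came from one experimental orchard. Each stage was a single harvesting date, so that maturation and the conditions of that date cannot be told apart. The spread between replicates is that within a date.

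Pear is a climacteric fruit, in which a rise in the hormone ethylene drives softening and aroma. Ethylene is made from methionine by ACC synthase (ACS) and ACC oxidase (ACO), is sensed by receptors of the ETR and ERS type that repress the response until they bind ethylene, and acts through ethylene response factors (ERFs). Auxin acts through AUX/IAA repressors and auxin response factors, while polygalacturonase (PG) and other enzymes loosen the cell wall and lipoxygenase (LOX), hydroperoxide lyase (HPL), alcohol dehydrogenase (ADH) and alcohol acyltransferase (AAT) supply the aldehydes, alcohols and esters of the aroma.

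The table held raw counts for 45217 genes, of which 14378 had no count in any library. Genes with at least 1 CPM (counts scaled to the size of the library) in at least 3 libraries were tested, which left 23155. Library totals ran from 7776419 to 10675582 counts, so that 3 counts corresponded to 0.281 to 0.386 CPM. The scaling factors of the H4 libraries (TMM, which sets the libraries on a common level through the bulk of the genes) were 0.938 to 0.967 and those of the other 9 libraries 1.003 to 1.031. On the second principal component of the tested genes, which held 11.6% of the variance, replicate 2 of H1 stood apart (46.6, against 8.75 and 4.75 in the other H1 libraries). Replicate 2 of H3 (12.9, against −14.9 and −13.7) and replicate 2 of H4 (15.2, against −5.35 and 2.87) lay off their stages in the same direction, and replicate 2 of H2 did not. Replicate 2 also had the most counts of its stage in H1 (9201671), H3 (9419007) and H4 (10675582), and the fewest in H2 (7776419). The part of depth in this deviation was not tested. The identifiers carry no names in the table and none was found in the reference gene table, so that a gene is named here only where the study names it. In whole flesh, fewer cells of a type and less RNA per cell cannot be told apart.

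Curvature was called for 2462 genes, 10.6% of those tested, at an adjusted p below 0.05 in the edgeR quasi-likelihood test (5558 had an unadjusted p below 0.05). Of these, 1267 genes (5.47%) were higher in the middle stages and 1195 (5.16%) were lower, so that 51.5% of the calls were upward. The split depended on the scaling. With scaling by the total counts the median log2 curvature of all tested genes moved from 0.00 to 0.05 and 70.8% of the calls were upward (1952 of 2757). The linear course in days was called for 7763 genes (33.5%) and the remaining alternating pattern, the cubic term, for 1193 (5.15%).

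Over all genes tested, the sum of squares between stages was divided into its linear part (58.9%), its curved part (22.6%) and its cubic part (18.5%). The spread between replicates, counted per term on the same scale, came to 11%. The linear part was thus the largest, and the curved part was larger than the replicate spread. The linear share does not measure a steady course, since a single step at H4 also enters it. ACO PCP011683, level until H3 and high at H4, had its linear term called (2.17, SE 0.16, adjusted p = 5.12e-07, edgeR).

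A called curvature did not mean that the ends were alike. The mean of H2 and H3 lay beyond both ends in 1678 of the 2462 genes (68.2%) and between them in 784 (31.8%). The middle lay farther from H4 than from H1 in 1891 genes (76.8%), and farther from H1 in 571 (23.2%). These shares were not determined over all tested genes, so they are not shown to be particular to called genes. Among all tested genes, H3 was called above H4 in 9.51% and below it in 11%. H2 was called above H1 in 3.94% and below it in 3.17%. The median size of the log2 curvature was 0.33 among the called genes and 0.12 among all tested genes.

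**Figure D1:**
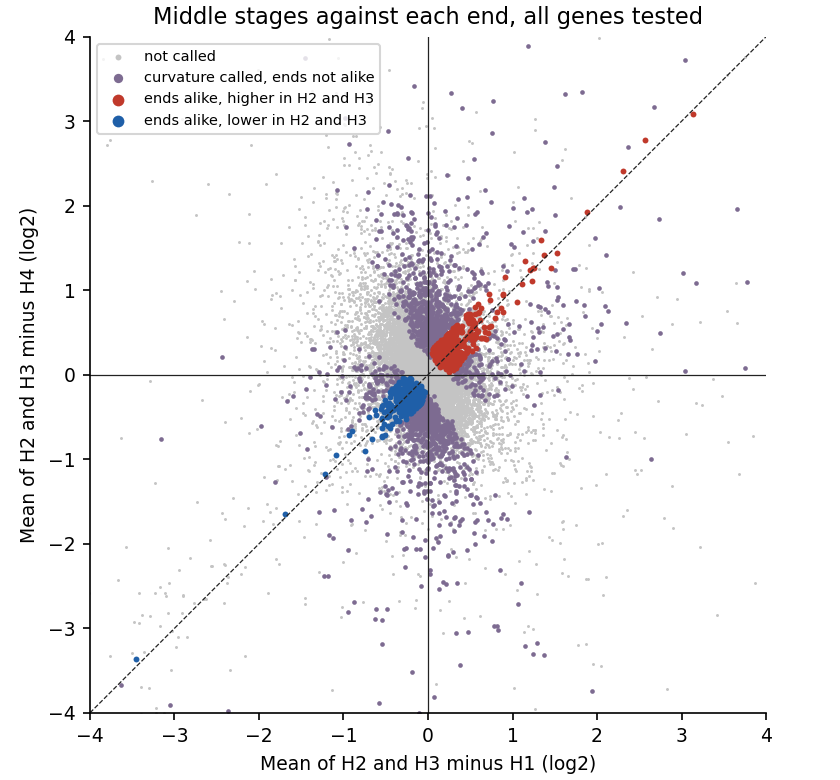
Difference of the mean of H2 and H3 from H1 (horizontal axis, log2) and from H4 (vertical axis, log2), 1 point per gene tested, with genes on the dashed line having equal ends. The 343 genes with ends alike and a higher middle lie in the upper right, the 320 with a lower middle in the lower left, and the other called genes spread farther along the vertical axis (216 of 23155 genes, 7 of them with ends alike, lie outside the axes at 4).

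Genes with a curved course and alike ends were taken as those with curvature called, with the stage means of both H2 and H3 beyond both H1 and H4, and with an estimated difference of H4 from H1 of less than 1.2-fold. A total of 663 genes met this rule, 2.86% of those tested and 26.9% of those called, and 343 (1.48%) were higher and 320 (1.38%) lower in the middle. The near-even split depended on the scaling, and total-count scaling gave 584 higher and 169 lower genes. The size of the groups depended on the limit between the ends, with 189 and 193 genes at 1.1-fold and 531 and 485 at 1.5-fold, and on the model, with 46 and 24 when the 6 middle and the 6 end libraries were fitted as 2 groups. Without replicate 3 of H3 the lower group held 207 genes. A further 61 called genes had ends within 1.2-fold, but 1 of the middle stages did not lie beyond both. Since the rule used the levels of the stages, the levels of these 663 genes are given as a description and without a test.

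The changes of these genes were small. The 343 genes higher in the middle had a median log2 curvature of 0.28 (quartiles 0.21 and 0.43), 45 of them (13.1%) exceeded 1.5-fold and 19 exceeded 2-fold. The 320 lower genes had a median of −0.25 (quartiles −0.33 and −0.19), 15 (4.69%) exceeded 1.5-fold and 7 exceeded 2-fold. The smallest sizes called were 0.12 and −0.11.

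On the log2(CPM + 1) scale, the median gene of the higher group lay 0.13 below its own mean at H1, 0.16 above it at H2, 0.10 above it at H3 and 0.18 below it at H4. The lower group mirrored this course with 0.10, −0.14, −0.09 and 0.15. By library, the medians of the middle stages ran from 0.09 to 0.17 in the higher group and from −0.15 to −0.09 in the lower one, and those of the ends from −0.19 to −0.11 and from 0.05 to 0.16. Among the ends, replicate 2 of H1 had the highest median of the H1 libraries in the lower group, 0.16 against 0.09 and 0.05 in the other 2 replicates.

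**Figure D2:**
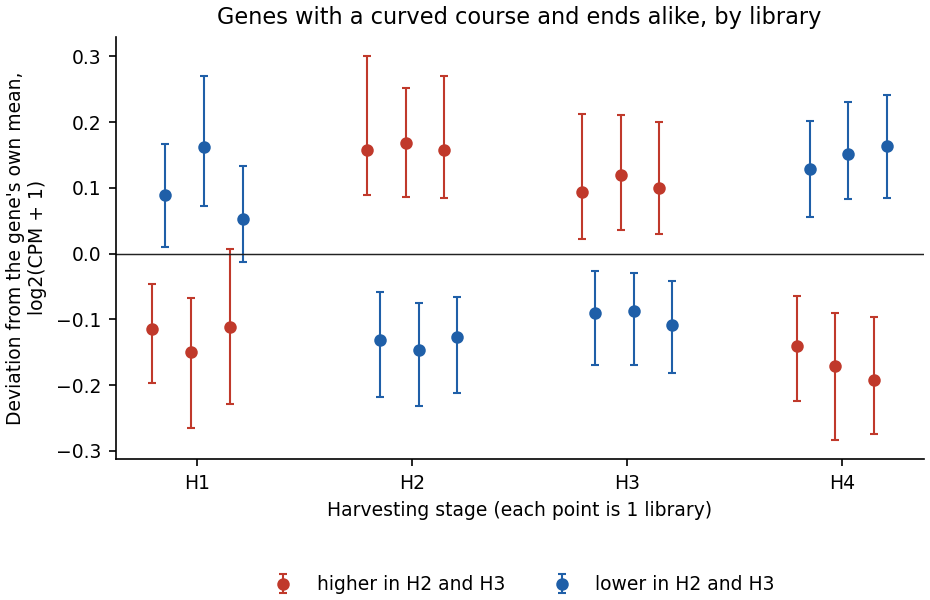
Median deviation of a gene from its own mean over the stages (log2(CPM + 1), vertical axis) in each of the 12 libraries, for the 343 genes higher (red) and the 320 genes lower (blue) in H2 and H3, with bars from the first to the third quartile over genes. All 6 middle libraries lie above 0 in the higher group and below 0 in the lower group, and the 6 end libraries lie on the other side. The rule that picked the genes favours this.

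The higher group took 2.32% ± 0.042 of all counts at H1, 2.80% ± 0.0044 at H2, 2.70% ± 0.0038 at H3 and 2.13% ± 0.049 at H4 (mean ± SD, n = 3). The lower group took 7.28% ± 0.26 at H1, 6.23% ± 0.042 at H2, 6.41% ± 0.076 at H3 and 6.93% ± 0.028 at H4 (n = 3). These are shares of the raw totals, without the TMM factors of the fit. In summed CPM with these factors, the H4 libraries of the lower group (71935 to 73695) lay within those of H1 (69890 to 75484). Those of the higher group stayed below H1 (21964 to 22596, against 22687 to 23166). The most abundant gene of the lower group had a mean of 7390 CPM. In both groups the shares of the middle libraries did not overlap those of the end libraries, which the rule that picked the genes favours.

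The 2 middle stages were also set against each other. By the estimate, H2 and H3 differed by less than 1.2-fold in 266 of the 343 higher genes and in 271 of the 320 lower genes. The share of such genes among all tested genes was not determined. H3 was called above H2 in 13 and below it in 30 of the higher genes, and in 20 and 4 of the lower genes, with 690 genes (2.98%) above and 546 (2.36%) below among all tested. Such calls made up a larger share of both groups than of all tested genes, apart from H3 below H2 in the lower genes. A difference between the 2 middle stages was thus not called in 300 of the higher and 296 of the lower genes, which does not show that they were equal.

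The likeness of the ends rests on the estimate and on its size limit. The libraries of H1 and H4 overlapped in range in 245 of the higher genes (71.4%) and in 230 of the lower genes (71.9%). The 1.2-fold limit favours such overlap, and its share among all tested genes was not determined. H4 was nevertheless called against H1 in 50 and 49 of them, at less than 1.2-fold, where 34.5% of all tested genes were called. All 6 middle libraries lay above all 6 end libraries in 128 of the higher genes (37.3%), and below them in 102 of the lower genes (31.9%), against 0.868% and 0.648% of all genes tested, and the rule favours such genes.

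The genes with alike ends were more often abundant ones. Curvature was called in 4.20% of 6196 genes with a mean below 5 CPM, 8.97% of 7110 genes from 5 to 20 CPM, 13.7% of 7791 genes from 20 to 100 CPM and 24.1% of 2058 genes above that. The higher group made up 0.50, 0.956, 2.30 and 3.16% of the genes in these classes, and the lower group 0.178, 0.872, 1.81 and 5.15%. The median of the mean CPM was 34.3 in the higher group and 54.3 in the lower group, against 14.8 over all tested genes. The part of abundance in these shares was not tested.

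**Figure D3:**
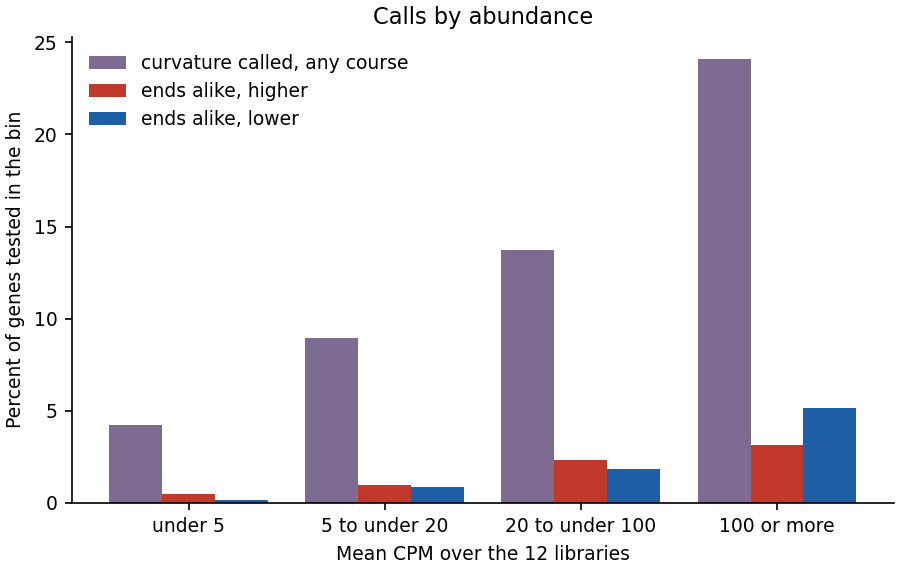
Percent of the genes tested in each class of mean CPM (horizontal axis) that had curvature called with any course (purple), or met the rule of alike ends with a higher (red) or lower (blue) middle. All 3 shares increased with abundance, from 4.20 to 24.1% for curvature of any course.

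The largest fitted changes came from genes that were not detected in some libraries. Of the 19 higher genes over 2-fold, 4 had no count in any of the 6 end libraries, and of the 7 lower genes over 2-fold, 3 had none in any of the 6 middle libraries. The gene with the largest fitted value had 0 counts in all end libraries and in 2 of the 3 H2 libraries, 95 counts in the remaining H2 library and 81, 115 and 99 counts in H3. The 3 lower genes without counts in the middle also had no count in 1 library of H1 and 1 of H4 each, and 18 to 43 counts in the other end libraries. For such genes a fold change has no meaning beyond the counts. The most abundant of the lower genes over 2-fold was read in every library, with 697, 783 and 656 CPM at H1, 500, 491 and 477 at H2, 222, 243 and 223 at H3 and 465, 778 and 702 at H4. Its level was lowest at H3, and replicate 1 of H4 lay below the H2 libraries, so that middle and ends overlapped. Its log2 curvature was −1.02.

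Among genes with alike ends, a mean of at least 5 CPM and complete separation of the middle from the end libraries, PCP003899 and PCP001166 had the largest upward and PCP024350 and PCP010439 the largest downward curvature of log2(CPM + 1). These 4 were picked for their curvature, and their values are a description. None of them has a name in the sources used here.

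PCP003899 measured 30.9, 37.7 and 39.3 CPM at H1, 62.9, 58.5 and 66.4 at H2, 63.7, 70.0 and 80.2 at H3 and 43.8, 27.4 and 33.5 at H4. All 6 middle libraries lay well above the ends, and the libraries of H1 and H4 overlapped. The fitted log2 curvature was 0.92 (SE 0.10) and the log2 difference of H4 from H1 was −0.05 (SE 0.15). PCP001166 measured 6.56, 5.74 and 6.51 CPM at H1, 11.8, 11.7 and 14.6 at H2, 9.76, 7.60 and 8.06 at H3 and 7.33, 5.89 and 2.76 at H4. Its H2 libraries were the highest and its H3 libraries lay between them and the ends, without a call of H3 against H2 (log2 −0.59, SE 0.25, adjusted p = 0.248, edgeR), with a curvature of 0.84 (SE 0.18) and a log2 difference of H4 from H1 of −0.23 (SE 0.27).

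PCP024350 measured 12.4, 13.5 and 11.1 CPM at H1, 8.67, 10.7 and 7.83 at H2, 5.78, 6.86 and 5.41 at H3 and 11.5, 13.1 and 16.9 at H4. It was lowest in H3, with the H2 libraries between H3 and the ends, with a curvature of −0.82 (SE 0.12) and a log2 difference of H4 from H1 of 0.16 (SE 0.16). PCP010439 measured 22.1, 26.2 and 24.2 CPM at H1, 12.9, 11.3 and 11.7 at H2, 13.9, 14.7 and 13.2 at H3 and 21.4, 19.3 and 20.7 at H4. The trough covered both middle stages, with a curvature of −0.78 (SE 0.06). Its H4 libraries all lay below its H1 libraries, and H4 was called slightly below H1 (log2 −0.24, SE 0.09, adjusted p = 0.0475, edgeR).

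**Figure D4:**
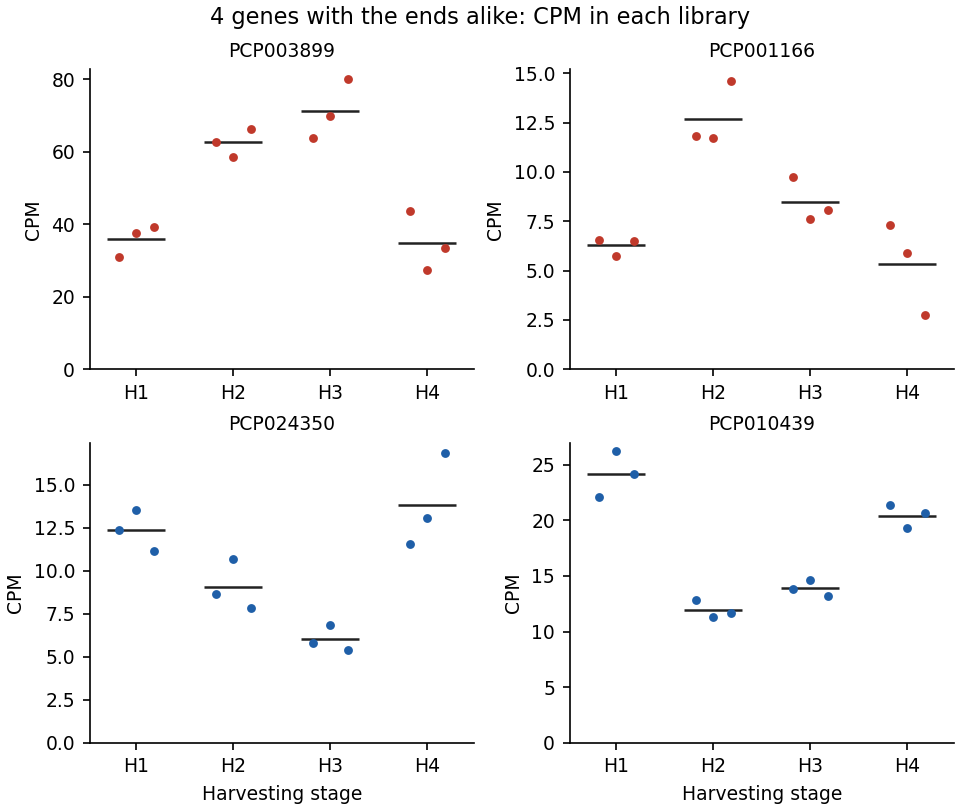
CPM (vertical axis, from 0) of 4 genes without a name in each library of H1 to H4, points for libraries and lines for stage means. In PCP003899 and PCP001166 (red) the 6 middle libraries lie above the 6 end libraries, and in PCP024350 and PCP010439 (blue) below them.

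A stricter look at a course that turns back used the first and the last week, which have no library in common. Of 912 genes (3.94%) that rose from H1 to H2, 134 fell again from H3 to H4, which is 14.7% of them and 6.09% of the 2201 genes (9.51%) that fell in the last week. A larger number, 313 (34.3%, and 12.3% of the 2540 genes, 11% of those tested, that rose in the last week), rose once more, and 465 had no call in the last week. Of 734 genes (3.17%) that fell from H1 to H2, 100 rose back from H3 to H4 (13.6%, and 3.94% of those that rose in the last week), 251 (34.2%, and 11.4% of those that fell in the last week) fell again and 383 had no call. Genes that turned back numbered 234, 1.01% of those tested, against 564 that were called in the same direction in both weeks. The step from H2 to H3 was not part of this count, so the 564 did not all keep one direction throughout. ERF2 PCP002056, which rose in both weeks and fell between them, is among these 564. The number fell most without an H2 library, to 147, 137 and 140 without replicates 1, 2 and 3 of H2. It was 163 without replicate 1 of H1 and 170 without replicate 3 of H4. Each of the other libraries left out gave 177 to 238. At an adjusted p below 0.01 the number was 84.

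Among the 234, 116 also met the rule of alike ends. The other genes with alike ends were not called in both weeks. In the higher group 94 genes were called only in the first week, 127 only in the last, 63 in both and 59 in neither. In the lower group these counts were 67, 122, 53 and 78.

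The genes named by the study, 42 with its qPCR reference gene, were, apart from that one, chosen by its authors among the DEGs of these same libraries, so that they are no independent evidence of a course. A total of 38 passed the filter. Curvature was called in 6 of them (15.8%, against 10.6% of all tested genes), in 5 downward and in 1 upward. The pectin esterase PCP011895 and AP2/ERF PCP027843 had almost no counts before H4. The SE of their curvature was 6654 and 3905, so the edgeR test could not decide on them. None of the 38 met the rule of alike ends, which 2.86% of all tested genes met, so that few or none would be looked for among 38. H4 was called above H1 in 25 and below H1 in 12 of them (18.1% and 16.4% of all tested genes), so that nearly all of these genes had a net course from the first to the last harvest. Their median log2 curvature was 0.00, as over all tested genes.

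Of the 5 genes of ethylene synthesis, 4 were tested and 1 was called. ACO PCP011683, which makes ethylene from ACC, measured 12.4, 13.3 and 10.4 CPM at H1, 11.2, 11.2 and 7.83 at H2, 9.03, 11.1 and 13.4 at H3 and 83.0, 145 and 137 at H4. The first 3 stages overlapped and all H4 libraries stood far above them, which gave a log2 curvature of −1.85 (SE 0.17, adjusted p = 3.1e-05, edgeR) with nearly all of the bend at the H3–H4 transition. The other 2 ACO genes had positive estimates that did not pass the test, 0.66 (SE 0.35, adjusted p = 0.277) for PCP009685 and 1.44 (SE 0.68, adjusted p = 0.219) for PCP022491. ACS PCP013122 had no counts at H1, 0, 3 and 0 at H2, 7, 7 and 10 at H3 and 42, 42 and 57 at H4. ACS PCP011500 did not pass the filter, with counts of 0, 0 and 0 at H1, 3, 0 and 5 at H2, 0, 0 and 0 at H3 and 5, 22 and 22 at H4.

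Both ethylene receptors were tested. ERS1 PCP004450 measured 11.4, 9.75 and 10.3 CPM at H1, 15.9, 15.4 and 13.9 at H2, 17.5, 17.1 and 12.6 at H3 and 37.5, 60.3 and 56.2 at H4. The middle libraries lay between the ends, with H2 and H3 overlapping, and the curvature of −0.59 (SE 0.13, adjusted p = 0.0102, edgeR) marked a plateau before a steep last step. ERS2 PCP026971 stayed between 0.963 and 3.04 CPM from H1 to H3 and reached 2.91, 5.59 and 5.83 CPM in H4, and its curvature of −0.43 did not pass the test (SE 0.27, adjusted p = 0.366).

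Among the ERFs, which bind promoters in the ethylene response, 4 of 6 were tested and 1 was called. ERF PCP011831 measured 1.64, 2.60 and 2.0 CPM at H1, 0.602, 1.01 and 1.29 at H2, 2.41, 1.80 and 2.65 at H3 and 4.96, 5.59 and 6.04 at H4. It was lowest in H2, where no library reached those of H1, and overlapped in H1 and H3. Its curvature was −1.19 (SE 0.20, adjusted p = 0.00244, edgeR), and H3 was called above H2 (log2 1.23, SE 0.30, adjusted p = 0.0354).

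ERF2 PCP002056 alternated between neighbouring stages rather than bending. It measured 1.64, 0.975 and 2.0 CPM at H1, 20.6, 19.5 and 18.6 at H2, 1.81, 2.43 and 2.42 at H3 and 26.0, 36.3 and 42.2 at H4. No library of H2 or H4 came near those of H1 and H3. The curvature, which averages H2 with H3, was −0.14 (SE 0.18, adjusted p = 0.702), while the cubic term was 3.38 (SE 0.16, adjusted p = 3.79e-07, edgeR). ERF1 PCP015040 did not pass the filter, with counts of 2, 0 and 0 at H1, 14, 12 and 7 at H2, 4, 0 and 0 at H3 and 0, 0 and 0 at H4, and thus had its counts mainly at H2.

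**Figure D5:**
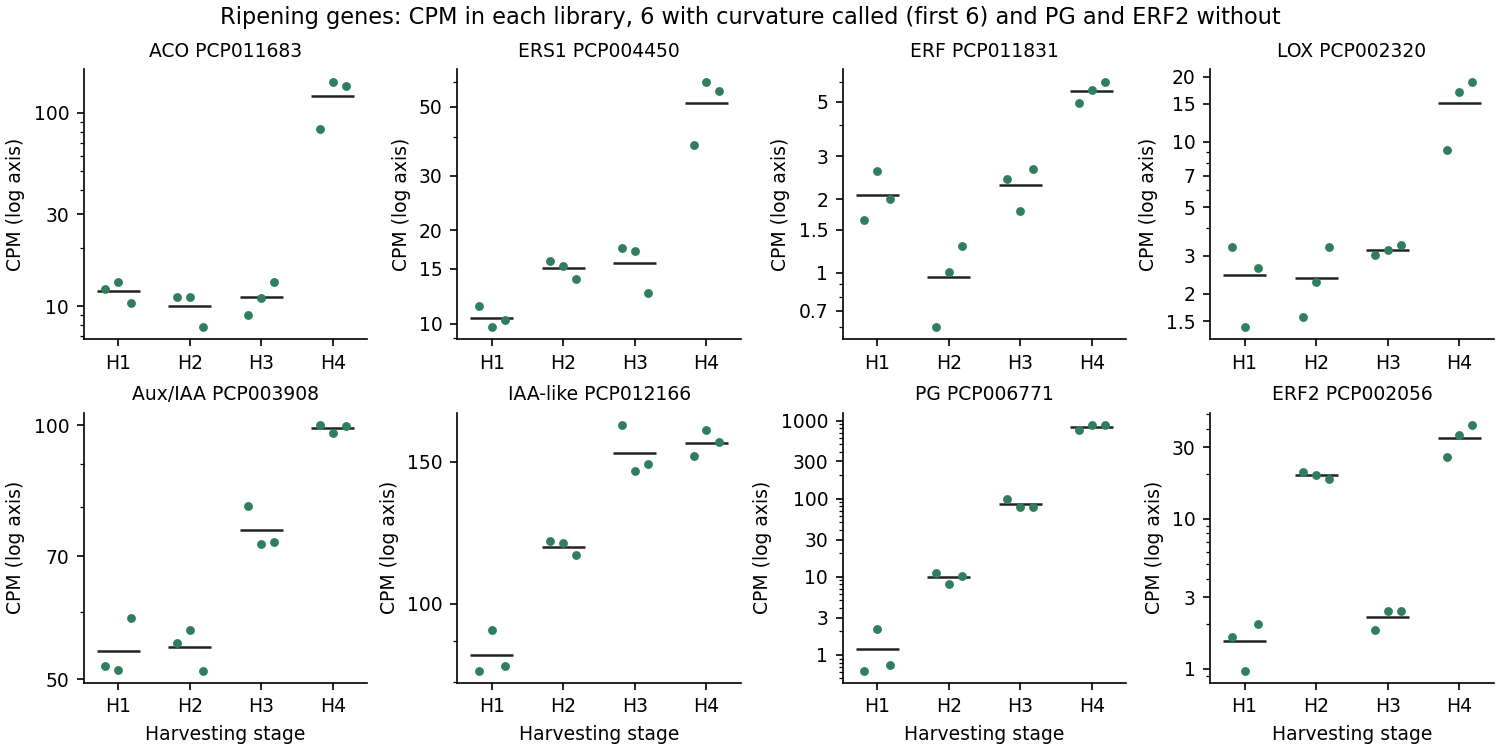
CPM (vertical axes, log scale, each with its own range) of 8 ripening genes in each library of H1 to H4, points for libraries and lines for stage means. The first 6 had curvature called, ACO PCP011683 with H4 libraries at 83.0 to 145 CPM above 3 flat stages, while PG climbed at every step and ERF2 alternated, both without a called curvature.

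Of the 10 auxin genes, 9 were tested and 2 were called, with opposite bends of the same size. Aux/IAA PCP003908, a repressor of the auxin response, measured 51.9, 51.2 and 59.1 CPM at H1, 55.3, 57.1 and 51.2 at H2, 80.2, 72.3 and 72.7 at H3 and 100, 98.0 and 99.8 at H4. It stayed level over the first week and rose afterwards, with a curvature of −0.20 (SE 0.05, adjusted p = 0.0232, edgeR). This call was lost with total-count scaling (−0.15, adjusted p = 0.0843) and without replicate 3 of H2, replicate 2 of H3 or replicate 3 of H3 (adjusted p from 0.0594 to 0.0634), and without replicate 2 of H1, H3 and H4 together (−0.21, adjusted p = 0.0565).

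IAA-like PCP012166 measured 82.7, 92.7 and 83.7 CPM at H1, 120, 119 and 115 at H2, 167, 146 and 149 at H3 and 153, 164 and 159 at H4. It rose in the first 2 steps and then levelled off, with H3 and H4 overlapping, and its curvature was 0.20 (SE 0.05, adjusted p = 0.0131, edgeR). No other of the 42 genes had a positive call in this test. The auxin efflux carrier PIN3 PCP021016, with 5.05 to 6.51 CPM in H1 and 2.0 to 2.48 in H4, had a curvature of 0.11 (SE 0.16, adjusted p = 0.731), and the response factor ARF PCP022634 one of 0.07 (SE 0.06, adjusted p = 0.553).

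None of the 8 cell wall genes was called. PG PCP006771, which cuts pectin, measured 0.631, 2.17 and 0.751 CPM at H1, 11.2, 8.18 and 10.2 at H2, 98.6, 78.5 and 77.8 at H3 and 768, 877 and 876 at H4. Every stage lay apart from the one before it, and the steps were of like size on the log2 scale, 2.99 (SE 0.30) from H1 to H2, 3.10 (SE 0.17) from H2 to H3 and 3.31 (SE 0.14) from H3 to H4. The curvature was −0.16 (SE 0.21, adjusted p = 0.715), and the cubic term in days, which counts the middle step as 13 days and the others as 7, was called (0.91, SE 0.15, adjusted p = 0.00402, edgeR). The pectin esterase PCP011895 had no counts from H1 to H3 and 5.39, 11.6 and 8.16 CPM in H4. Its edgeR curvature of −4.60 had an SE of 6654, since whole stages stood at 0, so the missing call says nothing about its course. DESeq2 gave a negative call (adjusted p = 0.0014), and edgeR called H3 below H4 (log2 −9.20, adjusted p = 0.000451).

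Of the 4 genes of volatile synthesis 1 was called. LOX PCP002320, at the head of the fatty acid route to aroma, measured 3.28, 1.41 and 2.63 CPM at H1, 1.57, 2.27 and 3.27 at H2, 3.01, 3.17 and 3.34 at H3 and 9.17, 17.0 and 19.0 at H4. The first 3 stages overlapped and H4 lay above all of them, with a curvature of −1.13 (SE 0.25, adjusted p = 0.0115, edgeR). The call was lost with limma-voom (−1.07, adjusted p = 0.0698). HPL PCP012365 and AAT PCP024687, which yield aldehydes and esters, had estimates of −0.24 (SE 0.09, adjusted p = 0.114) and −0.26 (SE 0.11, adjusted p = 0.161), and both were called once replicate 1 of H4 was left out (adjusted p = 0.048 and 0.0125).

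None of the 6 other transcription factors was called, and their median log2 curvature was 0.05. The MADS gene PCP007024 rose from 10.7 to 12.1 CPM at H1 over 14.3 to 18.1 at H2 and 19.9 to 22.8 at H3 to 23.8 to 26.6 at H4 without overlap between stages, and its curvature was 0.10 (SE 0.07, adjusted p = 0.481). The reference gene that the study used for qPCR, PCP030439, measured 35.5 to 45.1 CPM over all libraries, with a curvature of 0.03 (SE 0.05, adjusted p = 0.775).

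Without replicate 2 of H1, 2279 genes had curvature called and 332 higher and 288 lower genes had alike ends, of which 248 and 220 were among the 343 and 320 found with all libraries. Without replicate 2 of H3 these counts were 1933, 275 and 233, and without replicate 2 of H4 they were 1944, 277 and 231. With the 3 libraries left out together, which leaves 2 libraries in each of these stages, 1543 genes were called, and 202 higher and 189 lower genes had alike ends, of which 149 and 144 were among those found with all libraries.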

How the data were processed

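RNA-seq libraries of pear flesh at 4 harvesting stages were used, 3 per stage, grouped by the stage in the sample labels. Per the paper's methods and the labels, the authors used Scythe and Sickle for trimming, HISAT2 for alignment to a Pyrus communis genome, StringTie for quantification and DESeq2 for testing. Versions, the genome build and the step from StringTie to counts are not given in the sources used here. The kit, sequencer and read length of the labels differ from those of the methods. The methods do not state whether the libraries are strand-specific. If they are not, reads of overlapping or antisense genes cannot be told apart. Near-identical copies share reads.

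The authors deposited unnormalized counts, whole numbers throughout, although the table is named for FPKM. The 4 stage columns equal the means of the 3 libraries in all 45217 genes (tolerance 0.01) and were not used further.

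The fits were made with edgeR 4.0.16 in R 4.3.3 (TMM, quasi-likelihood test, 1 term per stage, all 12 libraries, filter of 1 CPM in at least 3 libraries). Benjamini-Hochberg adjustment of p-values ran over the 23155 genes tested within each comparison. SEs are the size of the log2 value divided by the square root of F and are approximate. Printed CPM use the TMM factors. Alternatives used other filters, scalings, thresholds and limits, DESeq2 1.42.0, limma 3.58.1 (voom), a replicate block, a model of 2 groups, each library left out, and replicate 2 of H1, H3 and H4 left out together. The figures were drawn with matplotlib 3.10.9.

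The comparison, the gene lists and the rules were chosen with earlier results of these data known. Named are the 42 genes to which the study gives an identifier, and the 2 highest and 2 lowest genes by curvature of log2(CPM + 1) among those with alike ends, complete separation and a mean of at least 5 CPM. Replicates of a stage differed by more than sampling noise (chi-square per degree of freedom of 2.50 to 8.05 over 12 pairs), so none was a duplicate. Intervals of shares cover counting error only.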

Additional observations from a re-analysis of the deposited data

Results flagged for a closer look

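In 5 of the 88 sets of 6 middle or 6 end libraries examined, 1 library lay farther from the rest than Dixon's limit at the 95% level. That limit is made for 6 values of the same kind, and each set here joined 2 stages. A rate by chance of 1 in 20 therefore does not hold for these sets, and the flags are a description. The auxin-induced protein PCP011951 reached 14.2 CPM in replicate 1 of H3, with 1.17 CPM in the next of the middle libraries, and 11.98 CPM in replicate 3 of H4, with 1.19 CPM in the next of the end libraries. Its mean levels in H3 and H4 therefore rest on 1 library each, and its curvature (0.38, SE 1.28) did not pass the test. The AP2/ERF gene PCP027843 measured 0.234 CPM in replicate 3 of H2, below the level of 3 counts, and 0 in the other 5 middle libraries. PCP001166 measured 2.76 CPM in replicate 3 of H4, with 5.74 CPM in the next lowest end library. Genes with alike ends and a lower middle took 7.57% of the counts in replicate 2 of H1 (95% Wilson interval 7.56 to 7.59%), and 7.15% in the next highest end library. Replicate 2 of H1 also stood apart on the second principal component.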

How the results depend on the processing

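With total-count scaling, 1952 genes were called higher in the middle, and 584 higher and 169 lower genes had alike ends (275 and 142 of them shared with the main groups). A model of 2 groups, in which differences within the middle and within the ends count as spread, left 94 calls, 60 higher and 34 lower, and 46 higher and 24 lower genes with alike ends. At an adjusted p below 0.01 there were 1130 calls, 603 higher and 527 lower, with 155 and 109 genes with alike ends, 84 that turned back and 467 cubic calls. Limits of 1.1-fold and 1.5-fold between the ends gave 189 and 531 higher and 193 and 485 lower genes. A 90% interval of H4 against H1 within 1.5-fold, an alternative chosen after seeing the data, gave 411 and 405, of which 322 and 314 were shared. Leaving out replicate 2 of H1, H3 and H4 together, also chosen after seeing the data, gave 1543 calls, 820 higher and 723 lower, with 202 and 189 genes with alike ends and 163 that turned back.

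No filter, 5 CPM, median-ratio scaling, DESeq2, limma-voom and the replicate block kept the counts of curved genes, of those with alike ends and of those that turned back within 1.5 times the main ones. The replicate numbers were not taken to pair the libraries, since the correlations of same-numbered deviations ran from −0.041 to 0.243, with 4 of 18 above 0.1. Of these 4, 3 were those among replicate 2 of H1, H3 and H4 (0.243, 0.118 and 0.194), which shared a deviation. With the replicate block 2315 genes were called, and 330 higher and 315 lower genes had alike ends. Leaving out 1 library gave 1771 to 2641 calls, 929 to 1309 higher and 842 to 1332 lower. It gave 240 to 408 higher genes with alike ends (240 without replicate 3 of H4), 207 to 437 lower ones (207 without replicate 3 of H3), and 137 to 238 genes that turned back (147, 137 and 140 without replicates 1, 2 and 3 of H2). Linear calls ran from 6605 to 7900 and cubic calls from 680 to 1656 (680, 745 and 682 without replicates 1, 2 and 3 of H2, 751 and 705 without replicates 2 and 3 of H3).

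The 6 called ripening genes and the 4 genes without names kept their direction under every alternative that gave them a value. In the model of 2 groups all of these calls but those of PCP003899 and PCP010439 were lost, and at 0.01 those of ERS1, Aux/IAA, IAA-like, LOX and PCP001166. COBRA-like PCP011926 was called with total-count scaling (0.17, adjusted p = 0.0346) and without replicate 3 of H1 (adjusted p = 0.0399), and AP2/ERF PCP027843 with limma-voom (adjusted p = 0.0451). Among genes without a call, 15 changed sign under some alternative, 31 times in all and never with a call. With total-count scaling these were the auxin-induced protein PCP036703 (0.0095) and expansin-like PCP023195 (0.013), and with limma-voom ACS PCP013122 (−0.71) and the auxin-induced protein PCP011951 (−0.49). In the model of 2 groups they were ACS PCP013122 (−2.22), ACO PCP009685 (−0.22), AP2/ERF PCP014930 (−0.10), the auxin-induced protein PCP019182 (−0.033), PIN3 (−0.0086), pectate lyase PCP016914 (−0.83), expansin-like PCP039813 (−0.15), MADS (−0.0035) and squamosa binding protein PCP011929 (−0.029). Without replicate 2 of H1, H3 and H4 they were PIN3 (−0.014), PG (0.29) and squamosa binding protein PCP011929 (−0.078). Leaving out 1 library moved ACS PCP013122 from −1.21 to 0.70, the auxin-induced protein PCP011951 from −1.44 to 1.59, PG from −0.30 to 0.25, expansin-like PCP039813 from −0.083 to 0.22 and PCP023195 from −0.67 to 0.25, NAC PCP007739 from −0.43 to 0.0056, and squamosa binding proteins PCP036084 from −0.12 to 0.33 and PCP011929 from −0.032 to 0.11. The cause of these changes was not tested. Of the genes below 5 CPM 4.20% were called, and the part of low counts in this share was not tested.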
